A study of Mus musculus with 18 samples.

Results

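The enzymes and the transporter that bring fructose and sorbitol into hepatocyte metabolism, or that act on fructose 6-phosphate, were examined as a set of 7 named genes: *Khk*, *Tkfc*, *Sord*, *Slc2a2*, *Pfkfb1*, *Pfkl* and *Gpi1*. They were taken by symbol from 52230 genes with summed counts, and all 7 were among the 10938 genes tested. The data were RNA-sequencing libraries of whole liver, 1 per mouse, from 4 male and 5 female mice of the PP genotype (446PP, the proline form of GKRP) and 4 male and 5 female mice of the LL genotype (446LL, the leucine form). The line is a knock-in of *Gckr* on a B6N background, so the changed protein is made wherever *Gckr* is expressed, and all mice ate standard chow. Labelled ages were 9 to 14 weeks in male and female PP mice, 13 to 14 weeks in male LL mice and 11 to 14 weeks in female LL mice, while the series description gives 14 weeks for all.

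GKRP (*Gckr*) is a regulatory protein of sugar metabolism in hepatocytes. It binds fructose 6-phosphate and fructose 1-phosphate, which act on it in opposite ways, so the enzymes that make or use these esters lie next to the changed protein. GLUT2 (*Slc2a2*) carries glucose and fructose across the hepatocyte membrane. Sorbitol dehydrogenase (*Sord*) oxidises sorbitol to fructose, ketohexokinase (*Khk*) makes fructose 1-phosphate, and triokinase (*Tkfc*) phosphorylates the glyceraldehyde that comes from it. Glucose 6-phosphate isomerase (*Gpi1*) makes fructose 6-phosphate, liver phosphofructokinase (*Pfkl*) uses it, and the bifunctional enzyme *Pfkfb1* makes and breaks the fructose 2,6-bisphosphate that activates phosphofructokinase.

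Ketohexokinase has forms A and C that differ by 1 exon of an alternative pair, and form C is known for its high affinity for fructose and its high level in liver. The pair is shown because the use of these exons is compared between groups below. In the annotation of GRCm39 the upstream exon lies at chr5:31084032-31084166 and the downstream exon at chr5:31084366-31084500, both on the plus strand inside *Khk* (ENSMUSG00000029162, chromosome 5, 31078775 to 31101479). Each has 135 bases, and 73 of the aligned positions (54.1%) carry the same base. Capitals mark the positions at which the exons differ.
Upstream exon: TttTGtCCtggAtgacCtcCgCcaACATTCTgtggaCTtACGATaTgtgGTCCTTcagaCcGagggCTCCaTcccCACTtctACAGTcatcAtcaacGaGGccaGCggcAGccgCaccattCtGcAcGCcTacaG
Downstream exon: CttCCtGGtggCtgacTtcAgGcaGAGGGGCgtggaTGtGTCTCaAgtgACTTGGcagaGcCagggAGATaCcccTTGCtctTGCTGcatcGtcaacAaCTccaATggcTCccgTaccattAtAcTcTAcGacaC

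None of the 7 genes was called in any comparison. A call needed a DESeq2 adjusted P below 0.05 and a fold of at least 1.3 or at most 0.7 (no fold limit for the interaction). Of all 10938 genes, 0.283% were called in male LL against male PP mice and 0.658% in female LL against female PP mice. The shares were 6.45% for female PP against male PP, 6.12% for female LL against male LL, 0.978% for LL against PP averaged over the sexes and 0.119% for the genotype by sex interaction. The edgeR quasi-likelihood test also called 0 of the 7 genes in each comparison. Of all 10938 genes it called 3 by genotype in males, 3 by genotype in females, 9 in the average over sexes and 0 in the interaction. By sex it called 573 in PP and 468 in LL mice. With so few genes called by genotype, 0 of 7 there adds little. At an unadjusted P below 0.05, DESeq2 listed 1 of the 7 genes (*Sord*) in female PP against male PP, where 17.5% of all genes passed that limit, and 1 (*Pfkfb1*) in the average over sexes, where 13.8% did. It listed 0 of the 7 in males (7.83% of all genes), 0 in females (13%), 0 in female LL against male LL mice (20%) and 0 in the interaction (5.67%).

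The groups overlapped for every one of the 7 genes in each of the 4 comparisons between groups. Among all tested genes the groups did not overlap by genotype for 4.07% in males and 2.66% in females, and by sex for 9.74% in PP and 8.16% in LL mice. The median log2 fold change of the 7 genes was 0.12 in males, with 6 of 7 above 0, and 0.10 in females, with 4 of 7 above 0. Over all tested genes these medians were 0.0001 and 0.01. The comparisons of genotype and of sex share groups of mice, so their values are given side by side only.

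Levels per length, as TPM (abundance per base of transcript, scaled to the same total in each library), placed *Sord* first. Its TPM was 448 ± 117 (SD, n = 18 mice), against 214 ± 92.8 for *Khk*, 90.7 ± 33.6 for *Tkfc*, 85.1 ± 30.7 for *Gpi1* and 66.7 ± 23.6 for *Slc2a2*. The regulatory enzymes were lowest, with 16.2 ± 4.71 TPM for *Pfkfb1* and 2.56 ± 1.22 for *Pfkl*. *Sord* was above *Khk*, *Khk* above *Tkfc*, *Slc2a2* above *Pfkfb1* and *Pfkfb1* above *Pfkl* in 18 of 18 mice each. *Tkfc* was above *Gpi1* in 9 of 18 mice and *Gpi1* above *Slc2a2* in 13 of 18, so these neighbours were not told apart by TPM. Counts per annotated kilobase kept the order except that *Slc2a2* came before *Gpi1*, and on that scale *Tkfc* was above *Gpi1* in 16 of 18 mice and *Gpi1* above *Slc2a2* in 9 of 18. TPM is a share of each library, and the urinary protein genes (*Mup* and a number) took 21.5% to 30% of the counts in male PP, 11.8% to 19.3% in male LL, 2% to 6.93% in female PP and 2.09% to 4.66% in female LL mice, so levels are compared between groups below on counts normalized by DESeq2 size factors.

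GLUT2 is the route of entry. *Slc2a2* (ENSMUSG00000027690, chromosome 3, 28752051 to 28785508) had normalized counts of 1424, 935, 1085 and 1223 in male PP mice and 1340, 1078, 1361 and 985 in male LL mice. In females they were 1151, 1106, 1358, 1299 and 1443 in PP and 1328, 1298, 1240, 1376 and 838 in LL mice. The ranges overlapped fully, apart from the single low value in female LL mouse 5. The fold of LL over PP was 1.02 (95% interval 0.814 to 1.28) in males and 0.957 (0.781 to 1.17) in females, both intervals inside the limits of a call. The DESeq2 adjusted P was 0.989 in males and 0.887 in females.

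Sorbitol dehydrogenase was the most abundant of the 7. *Sord* (ENSMUSG00000027227, chromosome 2, 122065230 to 122095821) had 7517, 6943, 7736 and 7078 normalized counts in male PP and 7800, 8049, 7513 and 6132 in male LL mice. Female PP mice had 5533, 4942, 6220, 5738 and 7583, and female LL mice 6216, 6068, 7569, 8412 and 6925. Thus 4 of the 5 female PP mice lay below every male PP mouse, and mouse 5 lay among the males. The log2 fold change of female PP over male PP was -0.29 ± 0.13 (SE), a fold of 0.82 (95% interval 0.687 to 0.98), with an unadjusted P of 0.0286 and a DESeq2 adjusted P of 0.204. Without female PP mouse 5 it was -0.38 ± 0.12 with an adjusted P of 0.0307, and the fold of 0.767 was still not past the limit for a call. Of 18 alternative settings this was the 1 with an adjusted P below 0.05, and it leaves out the mouse that lay among the males. Over these settings the log2 fold change ranged from -0.38 to -0.20. Female LL mice differed from male LL mice by a log2 fold change of -0.07 ± 0.13, and the interaction of genotype and sex was 0.22 ± 0.18 with an adjusted P of 0.767. By genotype the fold was 1.01 (0.836 to 1.22) in males and 1.17 (0.992 to 1.39) in females, with adjusted P of 0.997 and 0.365.

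Both kinases of the fructose route varied most in male LL mice. *Khk* had 981, 740, 973 and 916 normalized counts in male PP mice and 767, 1273, 1385 and 710 in male LL mice. *Tkfc* (ENSMUSG00000034371, chromosome 19, 10565155 to 10583018) had 1350, 957, 1050 and 1242 in male PP and 810, 1427, 1960 and 782 in male LL mice. For both genes male LL mice 2 and 3 were high and mice 1 and 4 low, and the coefficient of variation in male LL mice was 33.4% for *Khk* and 45.2% for *Tkfc*, against 12.4% and 15.6% in male PP mice. In females, *Khk* had 996, 1319, 1067, 1344 and 932 in PP and 1395, 1139, 1068, 1376 and 1269 in LL mice. *Tkfc* had 1345, 1514, 1270, 1921 and 1175 in female PP mice and 1702, 1740, 1268, 1245 and 1011 in female LL mice. The groups overlapped for both kinases.

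The intervals of the kinases were wide. For *Khk* the fold of LL over PP was 1.15 (95% interval 0.876 to 1.5, adjusted P = 0.784) in males and 1.1 (0.869 to 1.4, adjusted P = 0.76) in females by DESeq2. For *Tkfc* it was 1.08 (0.766 to 1.53, adjusted P = 0.955) in males and 0.964 (0.708 to 1.31, adjusted P = 0.944) in females. A change of 1.3-fold was therefore within the interval of either gene in either sex. Female PP over male PP folds were 1.25 (0.972 to 1.62) for *Khk* and 1.26 (0.905 to 1.75) for *Tkfc*, with adjusted P of 0.379 and 0.55.

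Of the enzymes of fructose 6-phosphate, the isomerase was the steadiest in male PP mice. *Gpi1* (ENSMUSG00000036427, chromosome 7, 33900755 to 33929780) had 434, 450, 406 and 413 normalized counts in male PP and 463, 593, 568 and 418 in male LL mice. Male LL mice 2 and 3 were again the high ones, and mouse 4 lay inside the PP range. Female PP mice had 451, 515, 438, 618 and 423, and female LL mice 617, 585, 468, 471 and 485. The fold of LL over PP was 1.2 (95% interval 0.98 to 1.47, adjusted P = 0.509) in males and 1.08 (0.899 to 1.29, adjusted P = 0.767) in females by DESeq2.

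*Pfkfb1* (ENSMUSG00000025271, chromosome X, 149371225 to 149426874) had the largest estimate by genotype. Normalized counts were 136, 165, 183 and 145 in male PP mice and 263, 225, 173 and 156 in male LL mice, with mice 1 and 2 above the PP range. Female PP mice had 156, 90, 130, 154 and 119, and female LL mice 178, 174, 181, 132 and 129, so 3 LL mice lay above every PP mouse. The log2 fold change of LL over PP was 0.37 ± 0.20 in males and 0.30 ± 0.18 in females (SE). Averaged over the sexes it was 0.33 ± 0.13, a fold of 1.26 (95% interval 1.05 to 1.51), with an unadjusted P of 0.013 and a DESeq2 adjusted P of 0.152. Over 26 alternative settings this average stayed between 0.24 and 0.39 and the smallest adjusted P was 0.0832.

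*Pfkl* (ENSMUSG00000020277, chromosome 10, 77818084 to 77845922) was the lowest of the 7, at 61.4 estimated counts per library on average. Normalized counts were 57.6, 72.4, 34.8 and 63.9 in male PP and 31.1, 54, 61.6 and 46.5 in male LL mice. They were 84.6, 55.5, 66.3, 48.9 and 72.9 in female PP mice and 48.3, 54.3, 47.2, 71.6 and 89.7 in female LL mice. The fold of LL over PP was 0.852 (95% interval 0.584 to 1.24) in males, where the independent filtering of DESeq2 left it without an adjusted P, and 0.939 (0.68 to 1.3, adjusted P = 0.901) in females. A fold of 0.7 was inside the interval in both sexes.

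**Figure D1:**
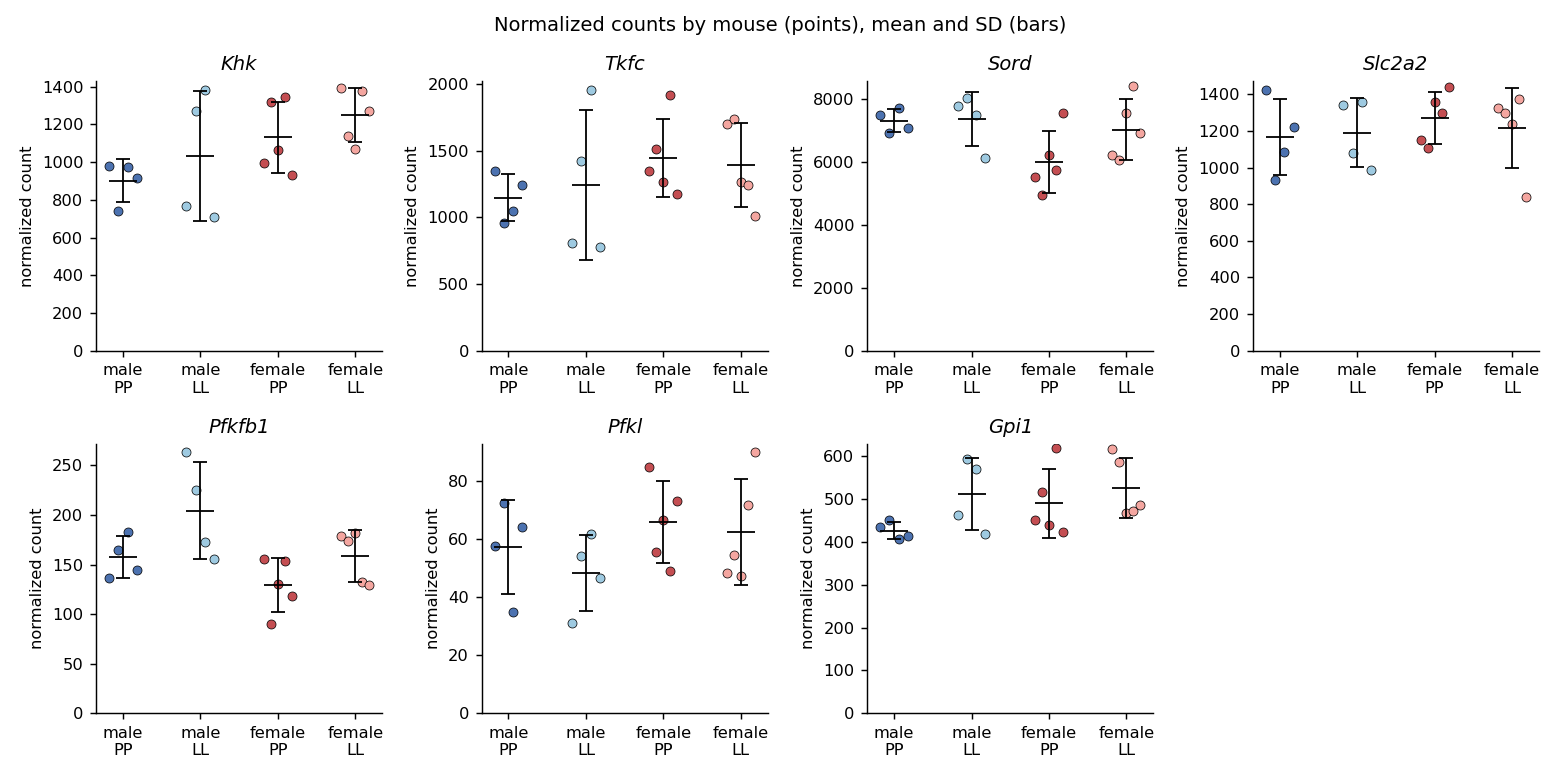
Normalized counts of the 7 genes (vertical axes, from 0) in the 4 groups (horizontal axes). Points are mice, and bars give the mean and SD. The groups overlap for each of the 7 genes, and the male LL mice spread widest for *Khk* (710 to 1385) and *Tkfc* (782 to 1960).

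**Figure D2:**
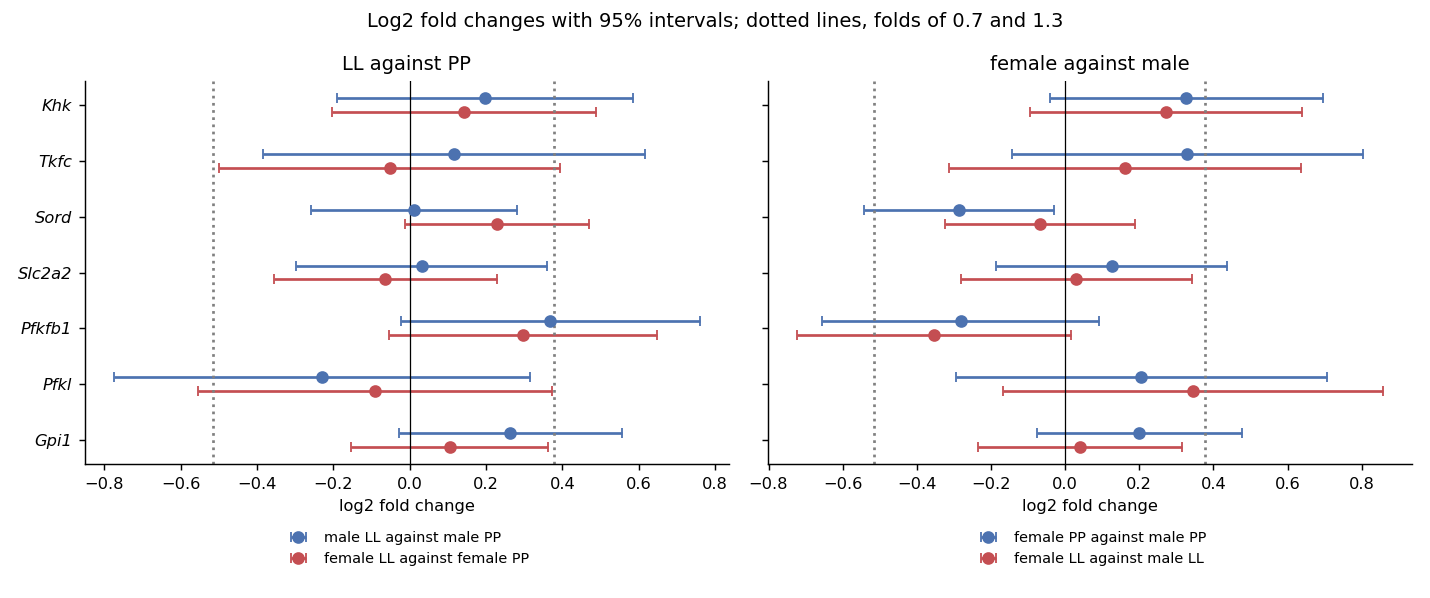
Log2 fold changes of the 7 genes with 95% intervals (horizontal axes) for LL against PP in each sex (left) and for females against males of each genotype (right). Dotted lines mark folds of 0.7 and 1.3, and of the 28 intervals the one for *Sord* in female PP against male PP mice leaves out 0.

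Other genes of the pathway were taken from lists of genes with known roles. Among the 8 tested genes of fructose and polyol handling given here, *Aldh2*, an aldehyde dehydrogenase, was the 1 called, higher in female LL than male LL mice (0.41 ± 0.13, DESeq2 adjusted P = 0.0295). That call was lost in 10 of 18 settings, 5 of which leave out 1 library each (female LL mouse 4 or 5, or male LL mouse 1, 2 or 4), and its lowest value was 0.05. The median log2 fold change of these 8 genes was -0.10 in males and -0.07 in females, against 0.0001 and 0.01 over all genes. Of 14 tested genes of fructose phosphate handling and lower glycolysis, *Pfkfb3*, a relative of *Pfkfb1* that favours the making of fructose 2,6-bisphosphate, was called, and the other 13 were called in none of the 6 comparisons.

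*Pfkfb3* had 42 to 59.2 normalized counts in male PP, 23.3 to 43.2 in male LL, 10.9 to 32.6 in female PP mice and 6.5 to 15.8 in female LL mice. It was lower in females than in males, by -1.21 ± 0.28 in PP and -1.47 ± 0.33 in LL mice (DESeq2 adjusted P = 0.000761 and 0.000453), and both calls were lost in 1 of 18 settings, the transcript length offset. Averaged over sexes it was lower in LL mice by -0.82 ± 0.22 (adjusted P = 0.0164), a call lost in 17 of 26 settings, 11 of which leave out 1 library each (female PP 1, 3, 4 or 5, male PP 1, female LL 1, 2, 3 or 5, male LL 1 or 3). *Pfkfb1* moved the other way in that average, without a call.

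Of the 6 tested genes of glucose phosphorylation and its reversal given here, 0 were called in any of the 6 comparisons. The most abundant of them, *G6pc1*, the glucose 6-phosphatase, and *Slc37a4*, the transporter that feeds it, had log2 fold changes of 0.32 ± 0.45 and 0.28 ± 0.16 in males and 0.17 ± 0.41 and -0.20 ± 0.14 in females (LL against PP, SE). *Gckr* itself had 400 to 581 normalized counts in male PP, 464 to 515 in male LL, 520 to 779 in female PP mice and 526 to 691 in female LL mice. A base change in *Gckr* does not show in these gene counts, so the genotype labels were not checked here. Among 9 tested genes of the fructosamine and hexosamine branch, *Gnpda1*, a glucosamine 6-phosphate deaminase that yields fructose 6-phosphate, was called higher in female PP than male PP mice (0.73 ± 0.24, DESeq2 adjusted P = 0.0412). This call was lost in 12 of 18 settings, 6 of which leave out 1 library each (female PP 2, 4 or 5, or male PP 1, 3 or 4).

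Among 9 carbohydrate-sensing factors and their targets, 0 were called by genotype and *Arrdc4*, an arrestin family gene, was called by sex. *Arrdc4* was higher in females by 0.98 ± 0.27 in PP and 1.13 ± 0.26 in LL mice (DESeq2 adjusted P = 0.00568 and 0.000864). The first call was lost on leaving out male PP mouse 3 and with the transcript length offset, and the second with that offset alone. *Mlxipl*, which encodes the carbohydrate-response factor ChREBP, had 563 to 843 normalized counts in male PP and 371 to 587 in male LL mice. The log2 fold change in males was -0.48 ± 0.19 with a DESeq2 adjusted P of 0.275. In females it had 438 to 681 in PP (mean 597) and 459 to 771 in LL mice (mean 619), so it was not lower there.

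The libraries were checked for other cells and for library properties. The 6 hepatocyte markers were present in every library. Their sum, most of it *Alb* (albumin), did not overlap between genotypes. It was 58241 to 78361 CPM (counts scaled to the total of the library) in male PP and 83898 to 101320 in male LL mice, and 145320 to 175970 in female PP and 123620 to 144820 in female LL mice. Their median log2 fold change of LL over PP was 0.19 in males and -0.22 in females, with 0 of 6 called in either sex. *Alb* alone took 4.88% to 6.81% of the counts in male PP, 7.14% to 9.02% in male LL, 13% to 16% in female PP and 11% to 13% in female LL mice. CPM, like TPM, is a share of each library, so the hepatocyte sum depends on the *Mup* genes too. On normalized counts, 4.07% of all genes in males and 2.66% in females did not overlap by genotype. *Alb* was called in the interaction of genotype and sex (-0.61 ± 0.15, DESeq2 adjusted P = 0.018). In a bulk sample fewer cells of a type and less RNA per cell cannot be told apart. The 6 Kupffer cell markers were all lower in LL than PP mice of both sexes, at 63.2 to 206 CPM in all libraries. Their median log2 fold change was -0.58 in males and -0.43 in females, with 0 of 6 called in either sex. Averaged over the sexes, DESeq2 called 1 of the 6 lower in LL mice (0.978% of all genes were called). In that average 5 of 6 had an unadjusted P below 0.05, against 13.8% of all genes. In female LL against male LL mice 1 of the 6 was called, higher, against 6.12% of all genes. The 5 endothelial markers had medians of 0.36 in males and -0.60 in females, and 4 tested stellate cell markers 0.58 and -0.41. The 5 erythroid markers had medians of -0.45 and 1.08. In female PP against male PP mice, 3 of the 4 stellate, 2 of the 5 endothelial and 1 of the 6 hepatocyte markers were called higher. The stellate and endothelial medians there were 1.01 and 1.15. In the same comparison 1 of the 5 erythroid markers was called lower, and 6.45% of all genes were called. In female LL against male LL mice 1 of the 5 erythroid markers was called, lower. The 5 cholangiocyte markers summed to at most 27.7 and the 5 leukocyte markers to at most 10.3 CPM. The part of these in the results was not tested. Fragment length was estimated as the median gap between length and effective length over transcripts of at least 3000 bases. It was not read from shorter transcripts, where the gap can differ, and the read layout is not given in the sources used here. The estimate was 369 to 631 bases in female PP and 247 to 377 in female LL libraries. In males it was 396 to 630 in PP and 203 to 582 in LL libraries.

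*Tkfc* and *Gpi1* varied together over the 18 mice. The deviations of log2 normalized counts from the group mean were correlated over 18 mice for the 21 pairs of the 7 genes, and 3 pairs had a Pearson's r above 0.5. For *Tkfc* and *Gpi1* r was 0.81 and Spearman's rho 0.82 (permutation P = 0.00115 and 0.00157, adjusted P over the 21 pairs = 0.0242). For *Khk* and *Tkfc* r was 0.79 and rho 0.76 (permutation P = 0.00978 and 0.0103, adjusted P = 0.103). For *Khk* and *Gpi1* r was 0.68 and rho 0.71 (permutation P = 0.0191 and 0.0122, adjusted P = 0.134). Thus 1 of the 21 pairs passed the correction.

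Leaving out the 2 mice farthest from the median of the first gene gave an r of 0.80, 0.66 and 0.59 for these 3 pairs. Without the 4 male LL mice r was 0.80 for *Tkfc* and *Gpi1*, 0.51 for *Khk* and *Tkfc* and 0.48 for *Khk* and *Gpi1*. Within single groups of 4 or 5 mice, *Tkfc* and *Gpi1* had r of -0.24 in male PP, 0.90 in male LL, 0.99 in female PP mice and 0.86 in female LL mice. For *Khk* and *Tkfc* these were 0.71, 0.98, 0.88 and -0.0023, and for *Khk* and *Gpi1* -0.73, 0.97, 0.90 and 0.23. None of the 3 pairs was thus above 0.5 in all groups. Fragment length deviated against *Khk* (r = -0.52), *Gpi1* (-0.54) and *Tkfc* (-0.36), and with it removed the r of the 3 pairs was 0.79, 0.76 and 0.55 in the order first given. *Sord*, *Slc2a2*, *Pfkfb1* and *Pfkl* had an r between -0.45 and 0.43 with every other member.

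**Figure D3:**
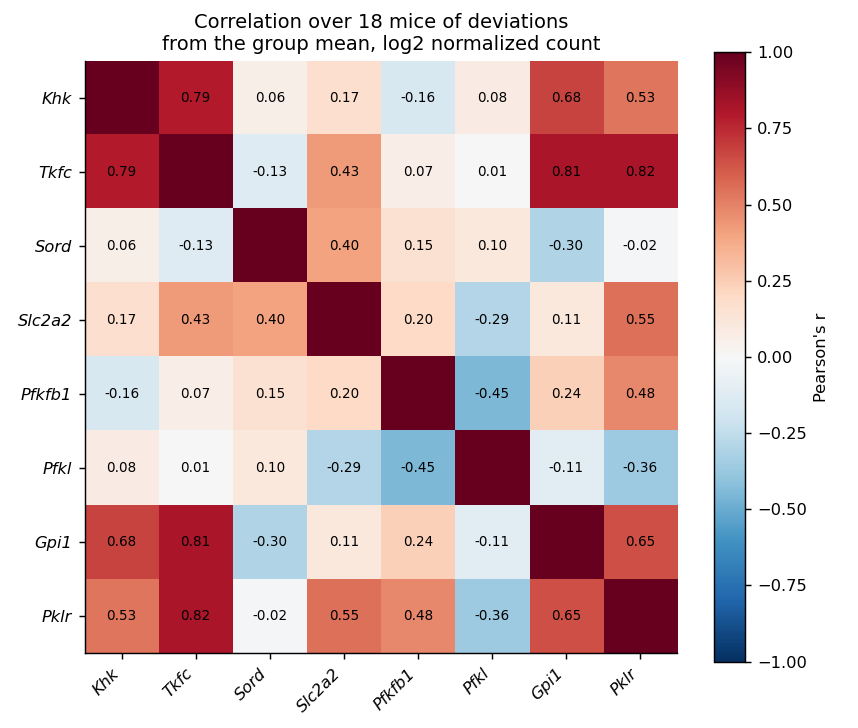
Pearson's r between genes over 18 mice, from deviations of log2 (normalized count + 1) from the mean of each group. Colour and number both give r, from blue (negative) to red (positive). *Khk*, *Tkfc*, *Gpi1* and *Pklr* form the red block (0.53 to 0.82), and *Slc2a2* reaches 0.55 with *Pklr*.

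*Pklr*, the liver pyruvate kinase, had an r of 0.82 with *Tkfc*, 0.65 with *Gpi1* and 0.53 with *Khk*, given as a description. Without the male LL mice these were 0.81, 0.48 and 0.19, and without the 2 farthest mice 0.81, 0.60 and 0.29. *Mlxipl* had an r of 0.53 with *Khk*, and 0.35 without the 2 farthest mice. Over 18 mice with group means left in, the 3 genes most like each member were searched among tested genes with a mean of at least 50 normalized counts. *Khk* was most like *Mlycd* (r = 0.90), *Haao* (0.84) and *Tkt* (0.84), and *Tkfc* was most like *Ttc23* (0.82), *Pklr* (0.82) and *Khk* (0.79). *Sord* was most like *Prnp* (0.86), *Gm46223* (0.84) and *Fbf1* (0.84), and *Slc2a2* like *Shprh* (0.79), *Eea1* (0.79) and *Usp40* (0.79). *Pfkfb1* was most like *Ywhaz* (0.86), *Odr4* (0.84) and *Wwtr1* (0.83), *Pfkl* like *Tfr2* (0.86), *Yipf3* (0.85) and *Ogfr* (0.85), and *Gpi1* like *Septin9* (0.78), *Mrps22* (0.77) and *Ndufa8* (0.74). *Tkfc* and *Khk* were the 1 pair in which a member appeared in the list of another.

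The exon pair of *Khk* was read from the transcripts that hold 1 of the 2 exons, Khk-205 (upstream) and Khk-204 (downstream). The upstream exon took 50.4%, 24.4%, 37.4% and 14.8% of their estimated counts in male PP mice and 40%, 16.9%, 39.9% and 65.4% in male LL mice. In females it took 0%, 0%, 0.665%, 29.5% and 15.7% in PP and 18.7%, 21.5%, 36.6%, 6.24% and 0% in LL mice. The downstream exon thus held the larger share in 16 of 18 mice, the exceptions being male PP mouse 1 and male LL mouse 4. As a share of TPM, which allows for the shorter Khk-205 (789 bases against 1583), the upstream exon was above 50% in 7 of 18 mice, 5 of them male. TPM means in males were 54.7% ± 18.2 (SD) for PP and 63.3% ± 23.7 for LL mice, against 18.4% ± 25.5 and 31% ± 24.4 in females, so which exon was the larger in males turned with the unit. A share of 0% means that Salmon assigned no count to Khk-205, out of 963 to 1350 estimated counts on the pair in those 3 mice. It does not mean that the upstream exon was absent. Khk-201, which holds both exons, was left out of the share. It had 127 and 80.7 estimated counts in female PP mice 1 and 2 and 112 in female LL mouse 5. How Salmon divided counts between Khk-201 and the other forms was not tested. TPM rests on effective lengths, which are shorter where fragments are longer, so it also depends on the fragment length of a library. In male LL mouse 4, with an estimated fragment length of 582 bases, the upstream share was 65.4% of counts and 90% of TPM. The part of fragment length in the exon share was not tested.

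The share did not pass a test by sex or genotype. Means were 31.8% ± 15.5 (SD, n = 4) in male PP, 40.6% ± 19.8 (n = 4) in male LL, 9.16% ± 13.2 (n = 5) in female PP and 16.6% ± 14.2 (n = 5) in female LL mice. The difference of female and male means was -22.6 percentage points in PP (p = 0.0794) and -23.9 in LL mice (p = 0.0952), and that of LL and PP 8.8 in males (p = 0.514) and 7.44 in females (p = 0.429; two-sided exact permutation tests). Without male LL mouse 2 the difference of female LL from male LL mice was -31.8 percentage points (exact permutation p = 0.0357). Every other run that left out 1 mouse of this comparison gave an exact permutation p of 0.0857 to 0.214. With the share of TPM that p was 0.127, and with the median as the statistic 0.191. Each form rests on few distinguishing positions, with 30 words of 31 bases found in no other *Khk* transcript for Khk-205 and 33 for Khk-204.

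Transcript use was compared for the 5 genes with at least 2 transcripts above 5% of the gene's counts, by the share of the most abundant one. Of 20 exact permutation tests, 0 gave a p below 0.05. The smallest was 0.0635, for Slc2a2-201 in female LL (63.7%) against male LL mice (74.7%). Shares of near-identical transcripts were unsteady: Tkfc-206 took 13.5% to 99.6% of *Tkfc* counts over the 18 mice and has 3 words of its own, while Tkfc-201 has 0. Sums over transcripts, used for the tests of genes, do not depend on this division.

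The share of estimated *Slc2a2* counts on the transcript Slc2a2-202 was lower in LL mice of both sexes. This observation was made after the shares were seen and is given without a test. Slc2a2-202, annotated for nonsense-mediated decay, lacks exon 4 of the 11 exons of Slc2a2-201, a 125-base exon at chr3:28767842-28767966 (GRCm39, plus strand). Its length is not a multiple of 3, so its loss shifts the reading frame. The 30 bases across the junction that skips it are shown because the transcript is told from the others by 28 words, with the 15 bases after the junction in capitals.
Slc2a2-202 junction: ggacaaacttggaagGGCTAATTTCAGGAC

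Slc2a2-202 took 9.18%, 9.95%, 9.27% and 22.9% of the estimated *Slc2a2* counts in male PP and 2.48%, 0%, 7.88% and 0% in male LL mice. In females it took 10.9%, 16.6%, 19.2%, 9.72% and 22.6% in PP and 0%, 5.01%, 8.99%, 0% and 2.39% in LL mice. The highest LL mouse of each sex (7.88% and 8.99%) lay just below the lowest PP mouse (9.18% and 9.72%), and 4 of the 9 LL mice were at 0%. A share of TPM allows for its shorter length (1447 bases against 5569 for Slc2a2-201). By TPM it took 19.6% to 47% in male PP and 20.4% to 44.2% in female PP mice. In LL mice that share was 0% to 19.3% in males and 0% to 20.2% in females. Slc2a2-202 was above Slc2a2-201 by TPM in male PP mouse 4 and female PP mice 2, 3 and 5. Of 3651 transcripts that held 5% to 95% of a gene with at least 100 counts in every library, 2.05% did not overlap between genotypes in males and 3.75% in females. Of the 3651, 1 (0.0274%) did so in both sexes in the same direction, and 0% did so in opposite directions. The 11 transcripts of the 7 genes among these 3651 included that 1. Slc2a2-202 was singled out from these same shares, so the 0.0274% describes it and is not a test. Transcripts without overlap numbered 75 in males and 137 in females, and chance was not excluded for the 1 found in both. Fragment lengths were mostly shorter in female LL than in female PP libraries and overlapped in males, and their part in the Slc2a2-202 share was not tested.

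**Figure D4:**
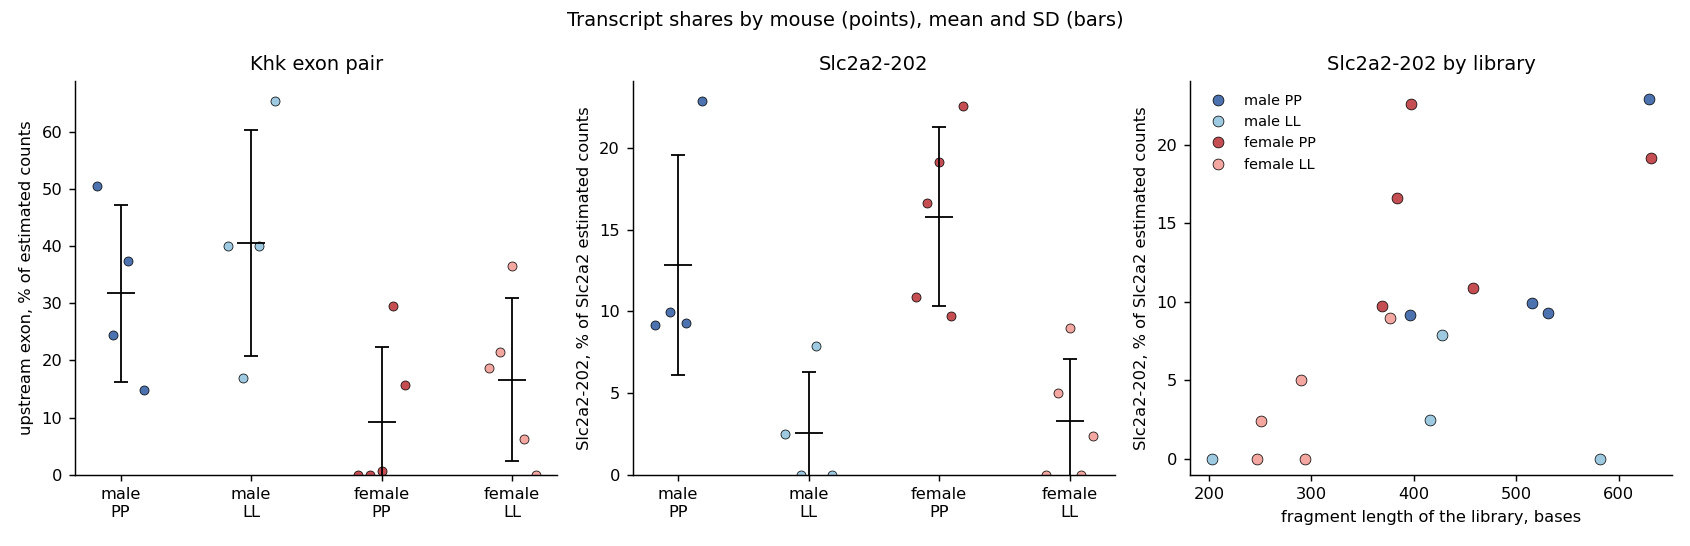
Left, share of the upstream *Khk* exon among estimated counts of the transcripts with 1 exon of the pair. Middle, share of Slc2a2-202 among estimated *Slc2a2* counts, both by group with points for mice and bars for mean and SD. Right, the Slc2a2-202 share against the estimated fragment length of each library in bases. LL mice lie below PP mice in the middle panel, from 0% to 8.99% against 9.18% to 22.9%.

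Some of the counts could be shared with other genes. Of the 31-base words of *Sord*, 35.9% also occur in the predicted gene *Gm6652*, which had 0.475 estimated counts per library, and of those of *Gpi1* 12.6% occur in *Gpi-ps*, with 0.264. *Khk* shares 29.3% of its words with *Cgref1* (13.1 counts) on the opposite strand, and *Tkfc* 21.4% with *Cyb561a3* (46.5) and 6.09% with *Ddb1* (551), also on the opposite strand. Strand use of the libraries is not given in the sources used here, so reads from these overlaps cannot be told apart by strand.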

How the data were processed

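Liver RNA of 18 mice was sequenced, 1 library per mouse, with groups from the labels. The authors ran Salmon 1.4.0 (version from the submitters' processing notes) on untrimmed reads against GENCODE M26 transcripts of GRCm39, after an RNA integrity limit of 6. The deposited tables hold lengths, effective lengths, TPM values scaled by the authors to one total, and estimated counts not scaled between libraries. Of 139225 transcripts, 137570 were joined to genes through GENCODE M39, and estimated counts were summed and rounded. Library totals were 3794671 to 6613905, so genes of few counts carry wide errors.

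No library repeated another of its own group, since the counts of all 32 same-group pairs had a chi-square per degree of freedom of at least 11.1. Pairs from different groups were not compared in this way. Genes that reached 10 counts in 4 or more libraries were tested with DESeq2 1.42.0 (the tool and the call limits are those of the study's methods, while the filter and the Wald test with 4 groups in 1 fit were chosen here). Benjamini-Hochberg adjustment was over the genes that independent filtering kept, 1606 to 10930 of the 10938 by comparison. The fit was tested on simulated data. Fold intervals are 95% Wald intervals, and permutations of correlations, 100000 within groups, used log2 (normalized count + 1). Genes named are the 7, list genes called in a comparison or otherwise the most abundant of a list, and the 3 genes most correlated with each member. *Gckr*, *Mlxipl*, *Pklr* and Slc2a2-202 were named after their values were seen. The 7 genes and all lists were chosen with earlier results of these data known, and some genes of the lists are not reported here. Sequences were read from GRCm39, build of the files, and 31-base words from GENCODE M39. Alternatives were TMM factors, edgeR 4.0.16, no filter, independent filtering off, a length offset, age, fragment length or replicate number as a term, single libraries left out, and fits of 2 groups. The labels do not say that mice of a group came from separate litters or cages, so P values measure the spread between these mice.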

Additional observations from a re-analysis of the deposited data

Results flagged for a closer look

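The normalized *Slc2a2* count of female LL mouse 5, 838, lay farther below the other 4 female LL mice (1240 to 1376) than their spread allows under Dixon's criterion for 5 values. Of 32 groups examined in this way, 28 of gene counts and 4 of the *Khk* exon share, it was the 1 that stood out, and chance marks about 1 group in 20. No member passed the interaction test. For none did every male LL mouse lie on one side of the male PP mean and every female LL mouse on the other side of the female PP mean.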

How the results depend on the processing

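The count of called genes among the 7 stayed at 0 in each of the 6 comparisons under all alternatives run. The values that changed sign were estimates that had passed no test, and the cause was not tested. With the transcript length offset, the log2 fold change of *Slc2a2* became -0.26 in males, that of *Gpi1* -0.035 in females, those of *Khk* and *Gpi1* -0.032 and -0.18 in female PP against male PP mice and -0.19 and -0.36 between the sexes in LL mice, and the interactions of *Slc2a2* and *Pfkfb1* 0.035 and 0.10. With fragment length as a term, *Tkfc* and *Sord* became -0.044 and -0.041 in males, *Khk* and *Gpi1* -0.074 and -0.048 in females, *Gpi1* -0.067 between the sexes in LL mice, and *Khk* and *Tkfc* -0.027 and -0.14 in the average over sexes. With age as a term, *Sord* became -0.042 in males, *Tkfc* 0.038 in females and *Slc2a2* 0.005 in the average.

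On leaving out single libraries, the LL against PP values in males ranged from -0.19 to 0.28 for *Tkfc*, -0.034 to 0.088 for *Sord* and -0.061 to 0.14 for *Slc2a2*. Those in females ranged from -0.15 to 0.071 for *Tkfc*, -0.11 to 0.043 for *Slc2a2* and -0.26 to 0.016 for *Pfkl*. Between the sexes in LL mice they ranged from -0.0073 to 0.47 for *Tkfc*, -0.052 to 0.14 for *Slc2a2* and -0.046 to 0.12 for *Gpi1*. In the average over sexes the ranges were -0.12 to 0.11 for *Tkfc* and -0.063 to 0.038 for *Slc2a2*. Interactions ranged from -0.20 to 0.12 for *Khk*, -0.34 to 0.14 for *Tkfc*, -0.20 to 0.012 for *Slc2a2*, -0.18 to 0.073 for *Pfkfb1* and -0.032 to 0.32 for *Pfkl*.

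On leaving out single mice, the difference in the *Khk* exon share of female LL from male LL mice ranged from -31.8 to -15.7 percentage points. Only the lower end, without male LL mouse 2, passed the exact permutation test. With 3 male mice of 1 genotype against 4 of the other that test could not pass. Differences in the share of the main transcript ranged, LL against PP, from -12.6 to 6.54 (*Khk*, males), -6.96 to 1.06 (*Pfkfb1*, males), -6.16 to 12.5 (*Pfkfb1*, females), -0.77 to 9.12 (*Gpi1*, males) and -4.53 to 4.09 (*Gpi1*, females), and for *Pfkfb1* by sex from -9.31 to 0.194 in PP and -7.02 to 9.67 in LL mice. As a share of TPM in place of counts, a choice made after seeing the data, Slc2a2-202 differed by -21.1 percentage points in males and -25 in females, against -10.2 and -12.5.

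No label ties mice of the same number in different groups to a shared litter, batch or day, and same-numbered libraries deviated together by r of -0.28 to 0.19. With the replicate block 0 of the 7 genes were called in each comparison, with log2 fold changes from -0.34 to 0.41. All genes called numbered 34, 54, 572, 520, 100 and 18 in the order male genotype, female genotype, sex in PP, sex in LL, average and interaction, against 31, 72, 705, 669, 107 and 13. The edgeR test called 3, 3, 573, 468, 9 and 0 in that order. Counts over 1.5 times from the main were 53 and 31 (male and female genotype) with the length offset, 14, 432 and 44 (female genotype, sex in LL, average) with fragment length, 44 and 56 (female genotype, average) with age, and 8 (interaction) with independent filtering off. Leaving out libraries gave 20 to 58, 28 to 276, 548 to 670, 465 to 804, 70 to 176 and 3 to 27. *Pfkl*, at 31.1 to 89.7 normalized counts, has the fewest counts of the 7, but its SE in males (0.28) was near that of *Tkfc* (0.26), and the part of depth in these intervals was not tested.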
